A study of Mus musculus with 6 samples.

Results

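The protein-coding genes of the cytosolic ribosome were followed in RAW264.7 cells, a mouse macrophage line, across polarization. They were taken by symbol: every protein-coding row of the deposited expression table whose name begins with Rpl or Rps and a number, or is Rplp0, Rplp1, Rplp2 or Rpsa, without the S6 kinase genes and without symbols marked as pseudogenes. This gave 88 genes of 25124 rows. Of these, 77 encode constituents of the ribosome, 10 are paralogs of a constituent (Rps27l, Rps27rt, Rpl22l1, Rpl36al, Rpl7l1, Rpl3l, Rpl10l, Rpl39l, Rpl32l and Rpl37rt), and Rps19bp1, which encodes a binding partner of Rps19, is no ribosome constituent at all. Poly(A) RNA was sequenced from 3 M1 samples, which had received lipopolysaccharide at 100 ng/ml and interferon-γ at 50 ng/ml, and from 3 M0 samples, which had received neither. Cells of both groups had been given a Cas9 plasmid with no guide RNA as the control line for an E4BP4 knockout, grew in medium with 25 mM glucose and were used below passage 15. The labels do not give the length of treatment, do not say whether the cells were 1 clone, and name no separate cultures for the replicates, so that a p-value here rests on a spread that could be technical.

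The libraries held 18666940 to 20283180 reads in genes for M1 and 15615639 to 18110568 for M0. Levels are in TPM, reads per transcript length scaled within each library; the deposited columns summed to 568081 to 572349 in M1 and 551257 to 555447 in M0, so their totals differed between the groups. As a check of the labels, Nos2, which encodes inducible nitric oxide synthase, stood at 522, 545 and 621 TPM in M1 and 0.13, 0.21 and 0.14 TPM in M0. The 7 macrophage markers summed to 1947 to 1981 TPM in M1 and 2221 to 2447 TPM in M0, but did not move together. In the tests described below, 3 of them were called higher in M1 and 4 lower on TPM. Of all tested genes, 18.7% were called higher and 61.5% lower. After the rescaling described below, 3 markers were higher and 3 lower. Markers of T cells, B cells, fibroblasts, epithelium and endothelium summed to at most 1.16 TPM per cell type in any library, and 3 neutrophil markers to 3.19 to 3.90 TPM in M1 and 4.43 to 5.85 TPM in M0. In bulk RNA, fewer cells of a type and less RNA per cell cannot be told apart.

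Ribosomal proteins are the protein part of the small and the large ribosomal subunit and are made in near equal numbers for assembly with ribosomal RNA in the nucleolus. Their messengers are short, stable and among the most abundant in growing cells. In vertebrates most begin with a cytosine followed by a run of pyrimidines, the 5′ terminal oligopyrimidine (TOP) motif, through which mTORC1 and the RNA-binding protein Larp1 set how strongly they are translated. RNA levels alone do not measure that translation.

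The start sites of 67 of the 88 genes could be read in RefSeq promoter sequences of GRCm38.p6, and 65 of these starts were identical to those in the deposited table. The windows below are 30 bases long, 15 before the start base and 14 after it, so that the start is base 16. Capitals mark an unbroken run of C and T that covers the start, where there is one. Shown are both members of the pairs whose proportions differed most in percentage points between M1 and M0 (Rps27 and Rps27l, Rpl22 and Rpl22l1), together with Rplp2 and Rpl14, which stood below the family, and Rps6, the S6 kinase substrate, which was not called.
Rps27, chr3:90213634-90213663, minus strand: atttccgctttcgCTCCTTTCCggcggtga
Rps27l, chr9:66946071-66946100, plus strand: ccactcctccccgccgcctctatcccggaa
Rpl22, chr4:152325711-152325740, plus strand: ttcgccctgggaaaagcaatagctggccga
Rpl22l1, chr3:28805493-28805522, plus strand: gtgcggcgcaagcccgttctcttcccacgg
Rplp2, chr7:141447636-141447665, plus strand: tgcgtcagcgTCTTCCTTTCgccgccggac
Rpl14, chr9:120571502-120571531, plus strand: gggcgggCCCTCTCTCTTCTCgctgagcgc
Rps6, chr4:86857353-86857382, minus strand: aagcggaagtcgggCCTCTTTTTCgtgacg

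The annotated starts of Rps27, Rplp2, Rpl14 and Rps6 lay inside pyrimidine runs of 9, 10, 14 and 10 bases. Those of Rps27l, Rpl22 and Rpl22l1 were a G with no run over them. Among the other members called lower relative to the family, no run covered the start of Rpl11 or Rps16. Runs of 3, 3 and 4 bases covered those of Rpl37a, Rps19bp1 and Rps2. Among members called higher relative to the family, Rps24 had a run of 9 bases, and Rps12, Rps26, Rpl10 and Rpl26 had none. A run of at least 6 pyrimidines covered the start in 19 of the 67 genes (28.4%), compared with 6.30% of 16347 protein-coding promoters. A run of at least 8 within 30 bases of the start was found in 52.2% of the ribosomal protein genes and 22.5% of all promoters. An annotated start may differ by some bases from the one used in these cells. In the full windows, 250 bases before the start and 50 after it and on both strands, CCGGAAG, the core bound by Ets family factors such as GABP, was in 35.8% of the ribosomal protein genes and 12.5% of all promoters. AAGATGGCG, the site of YY1, was in 5.97% (4 of the 67 genes) and 2.08%. The E-box CACGTG, bound by Myc and Max, was in 7.46% (5 genes) and 8.09%, and TATAAA was in 10.4% (7 genes) and 13%. The STAT site TTCNNNGAA was in 5.97% (4 genes) and 7.89%. The tetramer GAAA repeated after a gap of any 2 bases, as in the interferon-stimulated response element, was in 10.4% (7 genes) and 3.54%. On its other strand it can lie within a pyrimidine run. CTTTCC was in 49.3% and 26.1%, GGGCGG, bound by Sp1, in 61.2% and 48.5%, and CCAAT, bound by NF-Y, in 31.3% and 38.9%. The κB consensus site of NF-κB, which ends in CTTTCC, was in none of the 67 and in 0.147% of all promoters. No other motif contains another. These are matches of letters and not measured sites.

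The share of the library taken by ribosomal protein messengers overlapped between M1 and M0. The 88 genes summed to 64590, 64539 and 59033 TPM in M1 and to 67665, 61541 and 64324 TPM in M0, means of 62721 ± 3194 and 64510 ± 3066 TPM (SD, n = 3 each). These sums were 11.3, 11.3 and 10.4% of all TPM in M1 and 12.2, 11.2 and 11.6% in M0, so the groups overlapped. As shares of reads, which do not correct for their short transcripts, they were 3.6 to 4.1% in M1 and 3.9 to 4.4% in M0. Of the table's 100 rows with the highest mean TPM, 43 were ribosomal protein genes, and 80 of the 88 had 100 TPM or more in every library. Rps27 and Rps27rt have nearly the same reads and both enter these sums and counts. Rps27rt averaged 1320 TPM in M1 and 1227 TPM in M0.

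**Figure D1:**
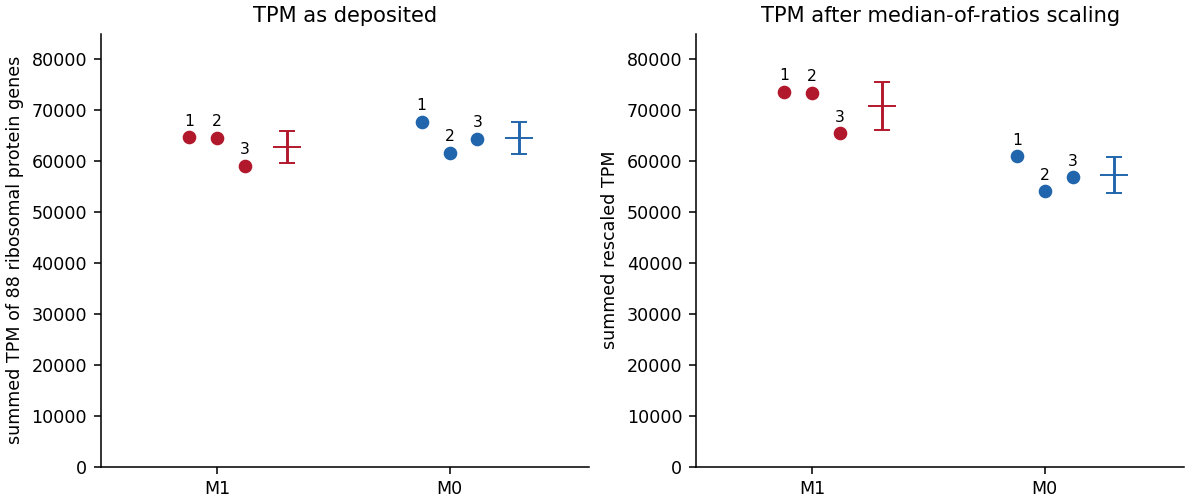
Summed level of the 88 ribosomal protein genes in each library, in TPM as deposited (left) and after division by median-of-ratios factors (right); points are replicates 1 to 3 of M1 (red) and M0 (blue), bars mean ± SD. The deposited sums overlap (62721 TPM in M1, 64510 TPM in M0), whereas the rescaled sums lie apart (70804 in M1, 57205 in M0).

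Genes that reached 1 TPM in 3 or more libraries were tested with limma on log2(TPM + 1), with Benjamini-Hochberg adjustment over all 11297 such genes and calls at an adjusted p under 0.05. This took in 85 of the 88 genes. Rpl10l and Rpl39l were listed at 0 in all 6 libraries, and Rpl3l lay below the limit. Among the 85, 2 were higher in M1 (Rps20 and Rpl7l1), 12 were lower and 71 were not called. Over all tested genes 18.7% were called higher and 61.5% lower. With TPM scaled to the same total in every library, 1 member was higher and 27 were lower. All M1 values lay above all M0 values for 3 members (Rps20, Rpl7l1 and Rpl15) and below them for 16, compared with 19.6% and 61.8% of tested genes. The median fitted change of the family was -0.04 log2 (range -0.32 to 0.25), while the median over all tested genes was -0.31. Changes stayed within 0.2 log2 either way for 78 of the 85 (91.8%) and for 23.0% of all tested genes, and the interquartile range was 0.09 log2 in the family and 0.68 over all genes. The 1002 other tested genes that averaged 100 TPM or more had a median of -0.11 log2 on TPM and 0.23 log2 after the rescaling described next.

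**Figure D2:**
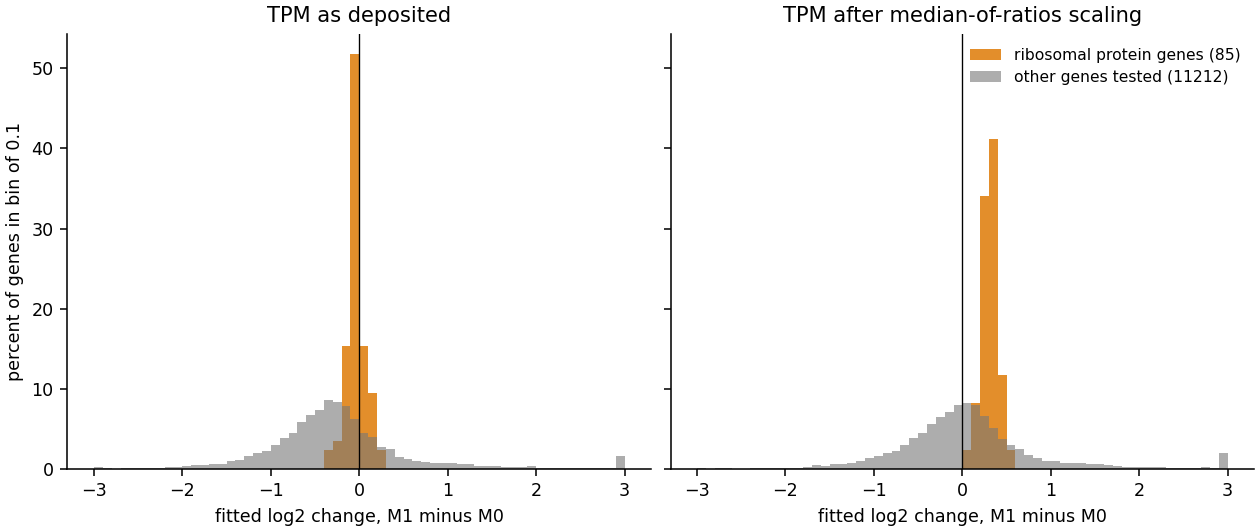
Fitted log2 change (M1 minus M0) of 85 ribosomal protein genes (orange) and of 11212 other tested genes (grey), as percent of genes in bins of 0.1, on TPM as deposited (left) and after median-of-ratios scaling (right); changes past 3 in either direction are drawn in the end bins. The ribosomal protein genes form a narrow peak around their median of -0.04 (left) and 0.30 (right).

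Whether this family was called higher depended on the scale, since TPM gives each gene as a share of its library. Division by median-of-ratios factors, which sets the typical gene to no change, moved the median of all genes to 0.0035 log2 and that of the family to 0.30 log2. On that scale 79 of 85 were higher in M1 and none lower, where 36.9% of all tested genes were higher and 36.6% lower, and no member had a fitted change below 0. By the authors' deposited table, of 85 listed members 81 were higher at an adjusted p under 0.05 and none lower, with a median of 0.32 log2. Of its rows 17.6% were higher and 15.9% lower. Those shares are over 24421 rows, genes listed at 0 included, and not over the 11297 genes tested here, so they are not on a like footing. On TPM, 83 of the 85 lay above the median of all tested genes, a position that dividing each library by 1 factor can alter only through the pseudocount. Which scale is closer to RNA per cell was not tested.

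The counts on TPM also turned on single libraries. M1 replicate 3 was the lowest M1 library for 80 of the 85 genes, at a median of -9.21% from the other M1 libraries. M0 replicate 1 was the highest M0 library for 65 of them, at 6.52%. M0 replicate 2 was the lowest M0 library for 68 of them, at -6.63%. M1 replicate 3 and M0 replicate 1 also stood apart by transcript length among other genes, relative to the other libraries of their group. Genes under 1000 bases lay at -0.12 log2 in M1 replicate 3 and 0.06 log2 in M0 replicate 1. Those of 4000 bases or more lay at 0.13 and -0.10 log2. The median ribosomal protein transcript has 696 bases. The part of this length difference in the results was not tested. Without M0 replicate 1, 11 members were called higher and 9 lower, and without M0 replicate 2, 2 and 14. Leaving out M1 replicate 3 gave 6 and 8, and leaving out M0 replicate 3 gave 2 and 6. Without both M1 replicate 3 and M0 replicate 1, 24 were higher and 6 lower. After rescaling, leaving out any 1 library left 67 to 82 called higher.

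Small and large subunit genes had similar medians. Of 31 tested small-subunit constituents 1 rose and 4 fell on TPM, with a median of -0.06 log2. Of 46 constituents of the large subunit, stalk and 5S particle included, none rose and 6 fell, with a median of -0.04 log2. After rescaling 31 of the 31 and 42 of the 46 were higher. The summed TPM of large-subunit genes was 1.29, 1.29 and 1.31 times that of small-subunit genes in M1 and 1.29, 1.31 and 1.32 times in M0, and these ratios, which no library scaling can alter, overlapped between the groups.

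The most abundant was Rplp1, one of the acidic stalk proteins that draw translation factors to the ribosome. It stood at 2188, 2216 and 1947 TPM in M1 and 2263, 1982 and 2165 TPM in M0, which overlap (log2 change -0.01, SE 0.06). Rpl8, a core protein of the large subunit, followed at 2060, 2053 and 1966 TPM in M1 and 2119, 2028 and 2167 TPM in M0 (log2 change -0.05). Rpl32 averaged 1814 ± 97.2 TPM in M1 and 1939 ± 81.5 TPM in M0 (SD, n = 3 each), and Rps21 1650 ± 133 and 1774 ± 143 TPM in M1 and M0. Neither was called. The order of these 4 is by mean over all libraries, and the Rplp1 and Rpl8 values overlapped in both M1 and M0.

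The stalk base Rplp0 averaged 480 ± 6.81 TPM in M1 and 496 ± 8.99 TPM in M0 and was not called. Rplp2, the partner of Rplp1 in the stalk dimer, was lower: 1055, 1091 and 1053 TPM in M1 and 1191, 1109 and 1327 TPM in M0, with no overlap (log2 change -0.18, SE 0.06, limma adjusted p = 0.020). That call was lost without M0 replicate 3, the highest M0 value, at -0.11 log2, and without M1 replicate 1.

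Rpl5 and Rpl11 bind the 5S ribosomal RNA and, when ribosome assembly is disturbed, hold the p53 ligase Mdm2. Rpl11 was called lower on TPM and Rpl5 was not. Rpl11 stood at 529, 527 and 468 TPM in M1 and at 608, 576 and 583 TPM in M0, with every M1 value under every M0 value (log2 change -0.22, SE 0.06, limma adjusted p = 0.0036). Rpl5 stood at 250, 237 and 221 TPM in M1 and at 247, 244 and 240 TPM in M0, which overlap (log2 change -0.05, adjusted p = 0.42). The difference between the 2 changes was not tested. Rpl11 kept its call without any 1 library, with -0.25 to -0.16 log2.

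Members with roles known outside bulk translation include Rpl11, Rpl22 and Rps19bp1, which were called lower on TPM, and the 7 given here, which were not called. Rpl13a, which in human monocytes leaves the ribosome after interferon-γ and joins the GAIT complex that silences inflammatory messengers, averaged 1094 ± 63.9 TPM in M1 and 1168 ± 54.6 TPM in M0. Rps6, the S6 kinase substrate, averaged 306 ± 8.59 TPM in M1 and 311 ± 1.26 TPM in M0. Rps27a, made as a fusion with ubiquitin, averaged 985 ± 76.4 TPM in M1 and 1031 ± 42.3 TPM in M0. Rpsa, also described as a laminin receptor, averaged 622 ± 24.8 TPM in M1 and 674 ± 35.3 TPM in M0. Rpl38, which mouse embryos need to translate certain Hox messengers, averaged 619 ± 37.0 TPM in M1 and 626 ± 49.0 TPM in M0. Rps25, required by several viral internal ribosome entry sites, averaged 804 ± 48.9 TPM in M1 and 817 ± 74.8 TPM in M0, and Rpl10a, the protein tagged in ribosome affinity purification, 499 ± 25.1 and 482 ± 35.7 TPM in M1 and M0. All 7 were called higher after rescaling.

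To ask which genes left the family rather than how the family moved, the common movement of the 85 was taken off each library before the same fit. This centring is free of the library scale and takes out the family's median shift in each library, M1 replicate 3 and M0 replicate 1 included. How much of the length difference of these libraries it leaves in single genes was not tested. The centred fit called 9 genes higher and 8 lower, where 18.0% of all tested genes were higher and 52.0% lower relative to the family. Their changes reached from -0.27 to 0.30 log2. Rps20, Rps26, Rps27l, Rpl10, Rpl11, Rpl14 and Rps12 kept their calls when any 1 library was left out; the other 10 lost theirs in at least 1 case. A fit without trend and robust weighting called 1 gene higher (Rps20) and 2 lower (Rps27l and Rps19bp1), and centring on the 20 most abundant members called 4 higher and 12 lower. The centre as first designed, the median of the members' levels, called 12 higher and 5 lower, which took in all 9 higher genes and 5 of the 8 lower ones but not Rplp2, Rps16 and Rps2.

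**Figure D3:**
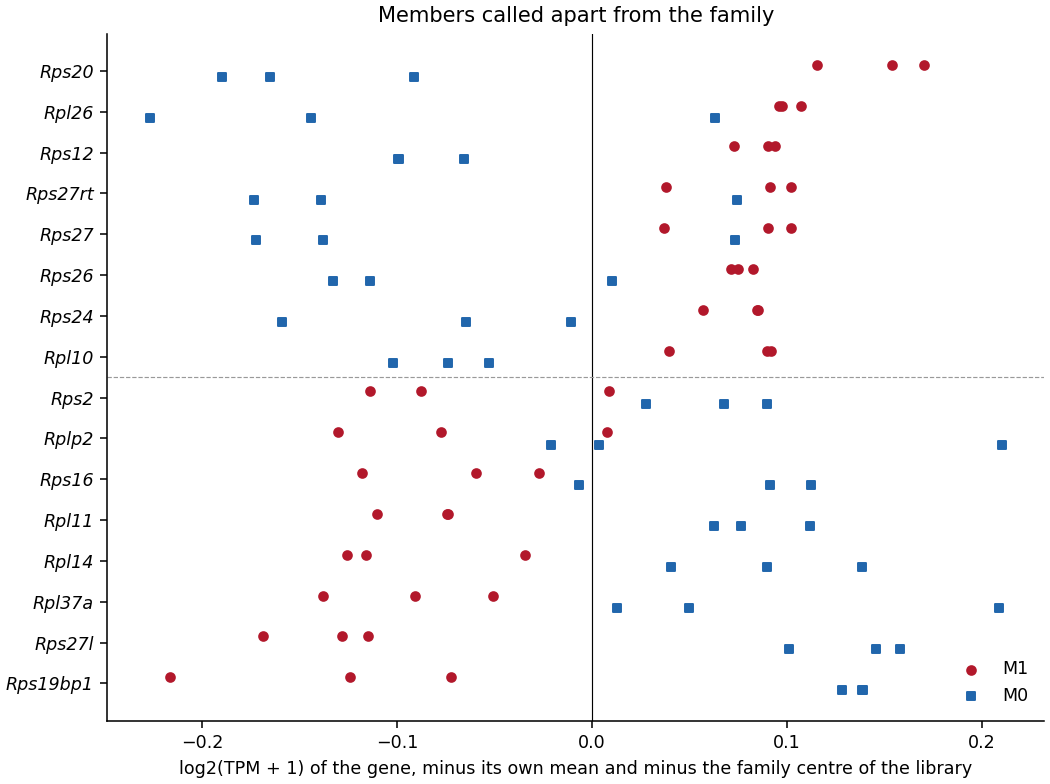
By library, 16 of the 17 genes called relative to the family: log2(TPM + 1) minus the gene's own mean and minus the library's family centre (M1 circles, M0 squares, 3 each). Genes above the dashed line were higher in M1, from Rps20 (0.30 log2) to Rpl10 (0.15 log2); those below were lower, down to Rps19bp1 (-0.27 log2).

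Rps20, a protein of the small-subunit head, showed the largest rise. It stood at 180, 177 and 157 TPM in M1 and at 149, 134 and 149 TPM in M0, so that the lowest M1 value exceeded the highest M0 value. Its change was 0.25 log2 on TPM (SE 0.06, limma adjusted p = 0.0032) and 0.30 log2 relative to the family (SE 0.07, adjusted p = 0.00062). The table gives this gene a transcript of 3440 bases, far longer than the family's median, so its level in TPM depends on that choice of transcript.

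Rps12 and Rps26, both small-subunit proteins, and Rpl10, which joins the large subunit late in its maturation, were called higher. Rps12 averaged 1413 ± 87.7 TPM in M1 and 1293 ± 58.2 TPM in M0, 0.17 log2 above the family's movement (limma adjusted p = 0.0012). Rps26, at the messenger exit, averaged 1154 ± 66.3 TPM in M1 and 1072 ± 106 TPM in M0, 0.16 log2 above it (adjusted p = 0.0074). Rpl10 averaged 934 ± 44.9 TPM in M1 and 869 ± 47.3 TPM in M0, 0.15 log2 above it (adjusted p = 0.0083). None of the 3 was called on TPM itself.

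Rpl26, which binds p53 messenger RNA, stood at 268, 265.0 and 241 TPM in M1 and at 272, 215 and 211 TPM in M0. The groups overlap through M0 replicate 1, and its call relative to the family (0.20 log2, adjusted p = 0.015) was lost without M0 replicate 3, at 0.14 log2, or M0 replicate 2. Its reads are also within 3% of those of an overlapping pseudogene row, Gm15772, so the 2 cannot be told apart. Rps27 and Rps27rt, at 0.16 log2 each, share coordinates and reads in the same way and lost their calls without the same libraries, both at 0.11 log2 as the lowest value; they count as 1 observation. Rps24 (0.15 log2) was also called relative to the family and lost the call without any of 3 of the 6 libraries, at values down to 0.11 log2.

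Below the family, Rps19bp1 and Rps27l showed the largest falls. Rps19bp1, whose product also acts on the deacetylase Sirt1 in human cells, stood at 48.1, 44.9 and 45.2 TPM in M1 and at 60.2, 55.4 and 57.5 TPM in M0, well apart (-0.32 log2 on TPM, SE 0.05, limma adjusted p = 0.00013). Relative to the family it fell by 0.27 log2 (adjusted p = 0.0064), a call lost without M1 replicate 2, at -0.23 to -0.31 log2 over the libraries left out. Rpl14 averaged 606 ± 12.6 TPM in M1 and 710 ± 25.8 TPM in M0 (-0.23 log2 on TPM, adjusted p = 0.00065, and -0.18 relative to the family). Rpl37a, a small zinc-binding protein of the large subunit, averaged 785 ± 63.9 TPM in M1 and 920 ± 68.0 TPM in M0 (-0.23 log2 on TPM, adjusted p = 0.010, and -0.18 relative to the family). Both calls of Rpl37a were lost without M0 replicate 3, at -0.17 and -0.12 log2.

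Rps16, Rps2 and Rplp2 lay 0.13 log2 under the family each. They were called with limma adjusted p = 0.027, 0.047 and 0.048, and leaving out 1 library ended the call in 3 or 4 of 6 cases, with values up to -0.11, -0.10 and -0.06 log2. On TPM, Rps16 (-0.18 log2) and Rps2 (-0.17 log2) kept their calls without any 1 library. Rps15, Rps19, Rpl18 and Rpl22 were called lower on TPM, with adjusted p between 0.041 and 0.047 and changes of -0.10 to -0.17 log2, but not relative to the family, and each lost its TPM call without at least 3 of the 6 libraries. Rps2, Rps12, Rps15, Rps16, Rps19, Rps24, Rps26, Rps27rt, Rpl14 and Rpl18 were named after their values were seen.

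Rescaling adds nearly the same amount to the change of every gene and put all 85 members above 0, so the sign of the 12 genes called lower on TPM was set by the scale. Their fitted changes after rescaling ran from 0.02 log2 in Rps19bp1 and 0.03 log2 in Rps27l to 0.24 log2 in Rpl18; 6 of them were called higher and 6 were not called.

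Paralogs within the family allow a comparison free of scale, as the level of one divided by that of its partner in the same library. Rps27l, a paralog of Rps27 that p53 switches on in human and mouse cells, stood at 363, 359 and 317 TPM in M1 and at 442, 417 and 436 TPM in M0 (-0.32 log2 on TPM, SE 0.06, limma adjusted p = 0.00030; -0.27 log2 relative to the family, adjusted p = 0.00019). Rps27 itself stood at 1378, 1363 and 1195 TPM in M1 and at 1414, 1118 and 1131 TPM in M0, which overlap. As a percentage of Rps27, Rps27l was at 26.4, 26.3 and 26.6% in M1 and at 31.2, 37.3 and 38.5% in M0. The M1 libraries agree closely and lie under all M0 libraries. M0 replicate 1, at 31.2%, stood apart from the other M0 libraries in this ratio. The denominator carries the reads shared with Rps27rt.

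For Rpl22l1 the proportion to its partner was higher in M1. Rpl22, a large-subunit protein that binds structured RNAs and in mouse represses Rpl22l1, was called lower on TPM at 183, 183 and 158 TPM in M1 and 211, 183 and 194 TPM in M0 (-0.17 log2, limma adjusted p = 0.047; not called without M1 replicate 3, M0 replicate 1 or M0 replicate 3, at values up to -0.09 log2). Rpl22l1 averaged 280 ± 25.2 TPM in M1 and 273 ± 18.0 TPM in M0 and was not called. As a percentage of Rpl22, Rpl22l1 was at 161, 159 and 159% in M1 and at 137, 138 and 142% in M0, with a gap between the groups wider than the spread in either. M1 replicate 3 and M0 replicate 1, which stood apart in TPM, did not stand apart in this ratio. That does not hold for every pair.

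**Figure D4:**
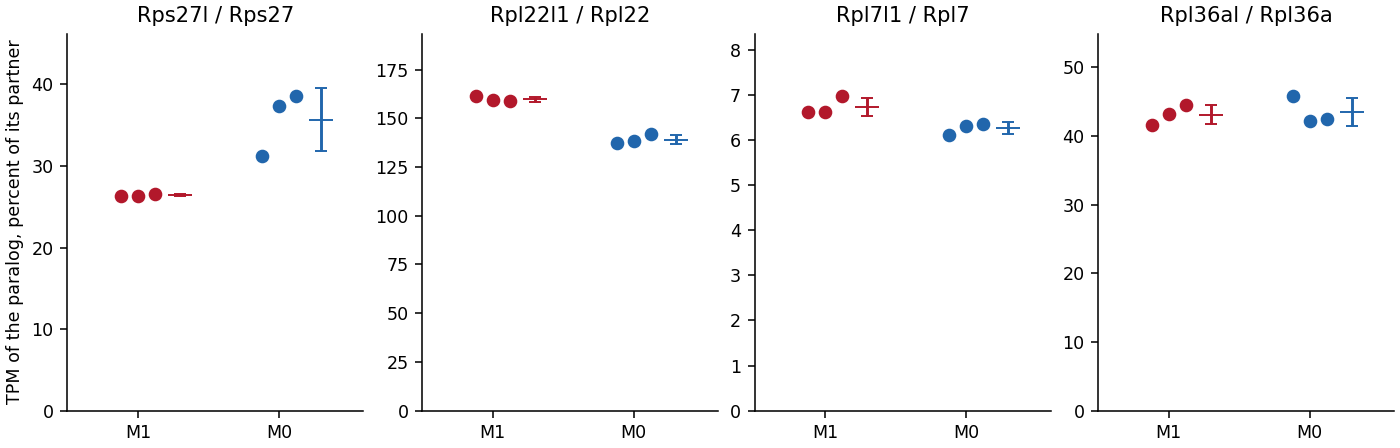
TPM of 4 paralogs as percent of the TPM of their partner in the same library, with axes from 0; points are the 3 libraries of M1 (red) and M0 (blue), bars mean ± SD. Rps27l lies lower against Rps27 in M1 (26.4 against 35.7%), Rpl22l1 higher against Rpl22 (160 against 139%), Rpl7l1 slightly higher against Rpl7 (6.75 against 6.27%), and Rpl36al overlaps (43.1 against 43.5%).

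Rpl7l1, a paralog of Rpl7 that acts in large-subunit assembly, was at 99.4, 98.4 and 99.4 TPM in M1 and 92.0, 90.4 and 89.4 TPM in M0 (0.13 log2, SE 0.04, limma adjusted p = 0.013; 0.17 log2 relative to the family, adjusted p = 0.051). Rpl7 averaged 1470 ± 39.0 TPM in M1 and 1446 ± 50.9 TPM in M0. The ratio of Rpl7l1 to Rpl7 was 6.75 ± 0.20% in M1 and 6.27 ± 0.13% in M0 (SD, n = 3 each), without overlap. M1 replicate 3 had the highest M1 ratio (6.98%) and M0 replicate 1 the lowest M0 ratio (6.13%). The transcripts of Rpl7l1 and Rpl7 have 2597 and 924 bases, and the part of length in this ratio was not tested. Rpl36al stood at 43.1 ± 1.41% of Rpl36a in M1 and 43.5 ± 1.99% in M0, which overlap. Rpl3l, the striated-muscle paralog of Rpl3, had 29 reads in all in M1 and 56 in M0, at most 0.31% of Rpl3. Rpl32l had 51 reads in M1 and 35 in M0, and its fitted change of 0.20 log2 was not called (limma adjusted p = 0.22). Rpl39 averaged 353 ± 34.5 TPM in M1 and 364 ± 24.3 TPM in M0 and Rps4x 1206 ± 56.6 and 1204 ± 15.9 TPM in M1 and M0; neither was called. An exact permutation test of such a ratio could reach no p under 0.1 at this group size, and none was used.

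Counting limits apply to some members. Besides Rps27, Rps27rt and Rpl26, Rpl34 and Rpl30 had reads within 3% of those of an overlapping row (Rpl34-ps1 and Gm12191), so 5 members could not be told apart from another row. Small nucleolar RNA genes lie inside 23 of the members, 32 such rows in all. The labels do not state whether counting used strand, and 6 members overlap a row on the other strand.

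For the gene lists around the ribosome, counts are to be read against all tested genes, of which 18.7% were higher and 61.5% lower on TPM and 36.9% higher and 36.6% lower after rescaling. Of 68 ribosome biogenesis genes, 28 (41.2%) rose and 19 (27.9%) fell on TPM, with a median of 0.05 log2; after rescaling 54 were higher and 2 lower. Noc4l, a factor in small-subunit assembly, averaged 45.8 ± 1.27 TPM in M1 and 16.1 ± 0.43 TPM in M0 (1.45 log2, limma adjusted p = 3.2e-10). Wdr43, of the small-subunit processome, averaged 103 ± 1.02 TPM in M1 and 52.9 ± 1.91 TPM in M0. Imp3, of the same machinery, was lower at 58.1 ± 4.79 TPM in M1 and 95.3 ± 3.88 TPM in M0, and Rrp1b at 9.10 ± 0.30 TPM in M1 and 15.5 ± 0.70 TPM in M0. Npm1, the abundant nucleolar chaperone, was not called at 827 ± 16.2 TPM in M1 and 778 ± 12.1 TPM in M0.

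Of 14 genes for RNA polymerase I and its factors, which make the ribosomal RNA, 1 rose and 4 fell on TPM (median -0.04 log2), and 9 were higher and 2 lower after rescaling. Ubtf, which opens ribosomal DNA for transcription, was lower at 25.2 ± 0.43 TPM in M1 and 46.7 ± 1.76 TPM in M0. Cd3eap, a polymerase I subunit, was lower at 7.47 ± 0.22 TPM in M1 and 16.3 ± 0.15 TPM in M0. Both were lower on either scale. Taf1d, of the promoter selectivity factor, was higher at 78.7 ± 7.40 TPM in M1 and 65.5 ± 0.91 TPM in M0, and Znrd1, another subunit, was not called at 61.2 ± 6.08 and 55.2 ± 3.51 TPM in M1 and M0.

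Of 12 chaperones and importers of ribosomal proteins, 1 rose and 8 (66.7%) fell on TPM, a share near that of all genes, with a median of -0.35 log2; 3 were higher and 3 lower after rescaling. Pdcd2, the chaperone of Rps2, was higher at 55.3 ± 2.67 TPM in M1 and 36.2 ± 2.49 TPM in M0, on both scales. Rps2 itself was lower on TPM but called higher after rescaling. The importins Tnpo1 (29.1 ± 0.43 TPM in M1, 51.5 ± 2.66 TPM in M0) and Ipo9 (25.8 ± 2.25 TPM in M1, 46.0 ± 1.62 TPM in M0) were lower. Ipo7 was not called at 111 ± 8.51 TPM in M1 and 107 ± 8.94 TPM in M0.

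The median change of the initiation factors lay near that of the ribosomal proteins. Of 40 initiation factors, 15 rose and 12 fell on TPM (median 0.02 log2), and 31 were higher and 2 lower after rescaling. Eif1a, which helps to scan for the start codon, averaged 112 ± 3.95 TPM in M1 and 67.3 ± 2.15 TPM in M0. Eif6, which keeps the subunits apart, averaged 241 ± 2.74 TPM in M1 and 192 ± 6.70 TPM in M0. Eif1b (49.5 ± 1.06 TPM in M1, 80.7 ± 3.74 TPM in M0) and the helicase cofactor Eif4b (144 ± 10.3 TPM in M1, 212 ± 11.8 TPM in M0) were lower on both scales, and Eif5a was not called at 1133 ± 11.9 TPM in M1 and 1178 ± 6.88 TPM in M0. Of 9 tested elongation and termination factors, 4 rose and 3 fell on TPM, and 8 were higher and none lower after rescaling, with the release factor Etf1 at 142 ± 5.40 TPM in M1 and 117 ± 7.74 TPM in M0 and Eef1d at 127 ± 2.40 TPM in M1 and 148 ± 2.30 TPM in M0, lower on TPM but higher after rescaling (0.12 log2). The constituents Rack1 and Fau, which the symbol rule leaves out, were not called on TPM and both were higher after rescaling; Rack1 averaged 1470 ± 23.2 TPM in M1 and 1506 ± 18.6 TPM in M0.

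Of 25 other RNAs with a TOP motif, 7 rose and 7 fell on TPM (28% each), with a median of 0.04 log2, and 22 were higher and 1 lower after rescaling. Zfas1 and Gas5, which host small nucleolar RNAs and are not translated into stable proteins, rose, Zfas1 to 87.7 ± 5.84 TPM in M1, against 38.3 ± 2.90 TPM in M0, and Gas5 to 135 ± 10.4 TPM in M1, against 93.9 ± 3.98 TPM in M0. Hnrnpa1, a splicing regulator, was lower on TPM at 242 ± 3.98 TPM in M1 and 286 ± 2.25 TPM in M0 but called higher after rescaling (0.11 log2, limma adjusted p = 0.040). Among all 11 long RNAs that host small nucleolar RNAs, 4 rose and 4 fell on TPM, and 6 were higher and none lower after rescaling.

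Among 27 tested regulators of TOP messengers and mTORC1, 3 (11.1%) rose and 17 (63.0%) fell on TPM, a share of falls near that of all genes, with a median of -0.25 log2, and 10 were higher and 5 lower after rescaling. Larp1, which binds the cap and TOP motif, rose to 83.1 ± 9.01 TPM in M1, against 52.2 ± 5.67 TPM in M0 (0.66 log2, limma adjusted p = 0.00017). Rheb, the activator of mTORC1, was higher at 102 ± 2.66 TPM in M1 and 92.8 ± 4.88 TPM in M0. Eif4ebp2, a translation repressor under mTORC1 control, fell to 12.3 ± 1.32 TPM in M1, against 31.4 ± 1.62 TPM in M0 (-1.29 log2, adjusted p = 2.3e-08), and the mTOR inhibitor Deptor to 1.07 ± 0.14 TPM in M1, against 4.50 ± 0.29 TPM in M0. Of 10 transcription factors tied to ribosomal protein genes, 2 rose and 5 fell on TPM, and 5 were higher and 4 lower after rescaling. Max was higher at 98.3 ± 2.71 TPM in M1 and 49.5 ± 1.18 TPM in M0, E2f1 lower at 10.6 ± 0.76 TPM in M1 and 42.5 ± 2.04 TPM in M0, and Yy1 lower at 24.3 ± 1.67 TPM in M1 and 40.1 ± 1.85 TPM in M0.

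In the pathways that ribosomal proteins signal to, several genes moved far more than any member of the family, as did many other genes. The median change of all tested genes was -0.31 log2 on TPM, with an interquartile range of 0.68 log2. The family had -0.04 and 0.09 log2. The rising and falling genes named below are those of smallest p in their lists. Of 10 genes around Mdm2 and p53, 3 rose and 5 fell on TPM, and 5 were higher and 3 lower after rescaling. Among targets of p53, Mdm2 and Cdkn1a were higher and Phlda3 and Zmat3 lower, on both scales. Mdm2 averaged 113 ± 7.88 TPM in M1 and 35.4 ± 2.75 TPM in M0 (1.65 log2, limma adjusted p = 1.0e-09), and Cdkn1a, the cell cycle inhibitor, 182 ± 7.87 TPM in M1 and 89.3 ± 0.89 TPM in M0. Phlda3 (3.50 ± 0.33 TPM in M1, 20.8 ± 1.92 TPM in M0) and Zmat3 (4.33 ± 0.26 TPM in M1, 7.20 ± 0.31 TPM in M0) were the falling ones, while Rps27l was lower on TPM and relative to the family and not called after rescaling. Trp53, which encodes p53, was not called at 129 ± 8.86 TPM in M1 and 119 ± 1.10 TPM in M0. Of 6 GAIT complex genes and kinases, Rpl13a included, none rose on TPM and 3 fell, and 3 were higher and 2 lower after rescaling. Gapdh, a subunit of that complex, was lower on TPM at 764 ± 11.6 TPM in M1 and 990 ± 68.2 TPM in M0 but not called after rescaling, and the kinase Dapk1 was lower at 2.44 ± 0.22 TPM in M1 and 5.77 ± 0.43 TPM in M0.

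Of 7 genes for eIF2α kinases, phosphatase and Atf4, 4 rose and 3 fell on TPM, and 4 were higher and 2 lower after rescaling. Eif2ak2, the double-stranded RNA sensor PKR, rose to 141 ± 3.86 TPM in M1, against 35.5 ± 2.58 TPM in M0, and the phosphatase subunit Ppp1r15b to 83.0 ± 0.98 TPM in M1, against 46.2 ± 1.78 TPM in M0. The kinases Eif2ak3 (3.48 ± 0.19 TPM in M1, 12.2 ± 0.45 TPM in M0) and Eif2ak4 (4.01 ± 0.34 TPM in M1, 9.29 ± 0.62 TPM in M0) fell. Of 16 ribosome quality control genes, 4 rose and 11 (68.8%) fell on TPM, a share of falls near that of all genes, and 8 were higher and 4 lower after rescaling. The ubiquitin ligase Rnf14 rose to 37.0 ± 0.93 TPM in M1, against 19.1 ± 0.59 TPM in M0, and Map3k20, the kinase ZAK that senses collided ribosomes, fell to 14.1 ± 0.07 TPM in M1, against 42.2 ± 1.32 TPM in M0.

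The mitochondrial ribosome, a separate particle encoded by its own nuclear genes, gives a second ribosomal family for reference. Of 78 mitochondrial ribosomal protein genes 10 (12.8%) rose and 47 (60.3%) fell on TPM, shares near or under those of all genes (18.7% and 61.5%), with a median of -0.18 log2, and after rescaling 36 were higher and 19 lower, with a median of 0.15 log2. Mrpl52 was higher at 164 ± 13.9 TPM in M1 and 61.7 ± 7.33 TPM in M0, and Mrpl18 lower at 84.3 ± 5.36 TPM in M1 and 161 ± 4.92 TPM in M0, changes of 1.40 and -0.93 log2. Mrpl30 was not called at 119 ± 9.57 TPM in M1 and 124 ± 7.10 TPM in M0. Summed on TPM, the mitochondrial genes stood at 3559 to 3801 TPM in M1 and 4181 to 4398 TPM in M0, which do not overlap, while the cytosolic sums overlapped. This contrast holds for TPM only. After rescaling the cytosolic sums lay apart, with means of 70804 in M1 and 57205 in M0. Rescaled mitochondrial sums were not taken. The difference between the families was not tested.

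**Figure D5:**
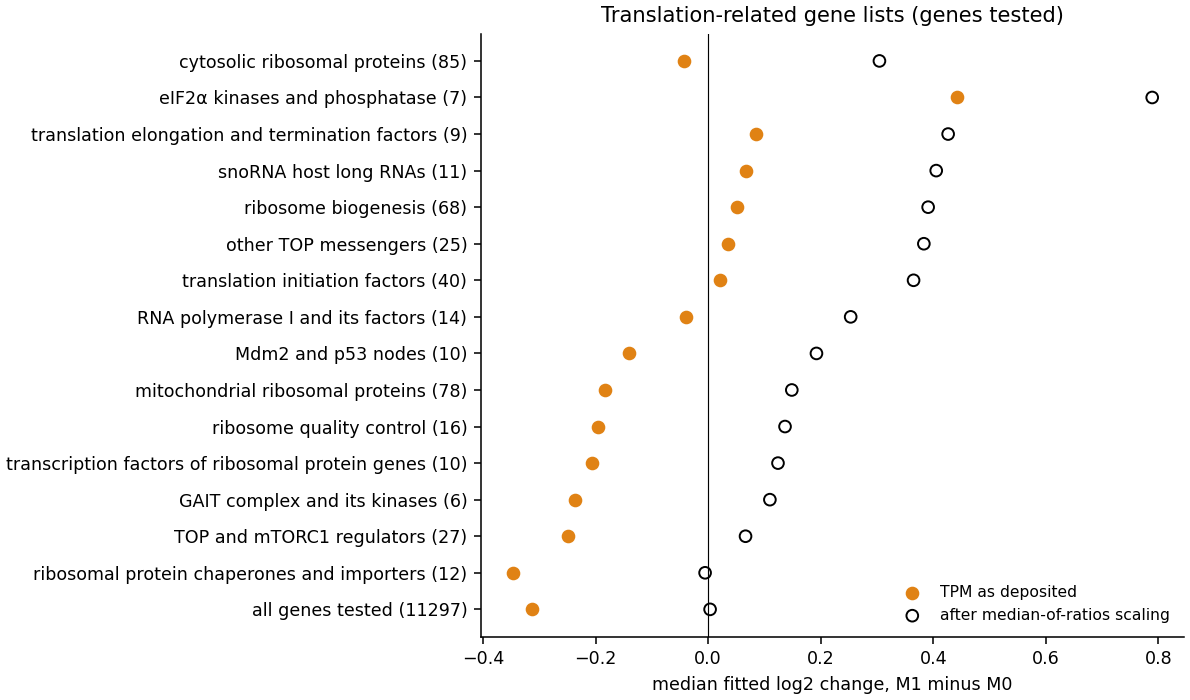
Median fitted log2 change (M1 minus M0) of the cytosolic ribosomal protein genes, of gene lists around translation and of all tested genes, on TPM as deposited (filled) and after median-of-ratios scaling (open); numbers of tested genes in brackets. Cytosolic ribosomal proteins sit at -0.04 and 0.30, mitochondrial ones at -0.18 and 0.15, and all genes at -0.31 and 0.0035.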

How the data were processed

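Per the file headers, the authors deposited TPM for each gene in each sample and a second table with log2 values, log2 fold changes and p-values with adjusted p-values of their own comparison, per the file headers; its fold changes run M1 over M0, as all called rows share the sign of the TPM difference. Per the submitters' processing notes, the build was mm10, and the tools listed there, without their roles, were STAR 2.7.5a, bcl2fastq, HOMER 4.11.1 and DESeq2. TPM columns summed to 551257 to 572349. TPM times length was a whole multiple of 1 value per library for 99.8 to 99.98% of values (tolerance 0.1), which gave reads.

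The main test was limma 3.58.1 (R 4.3.3; trend and robust) on log2(TPM + 1). The same fit was made after median-of-ratios scaling, and after taking off the family's centre. That centre was first designed as the median of members' levels, which in some simulated draws gave many false calls and in others did not, so the median of members' deviations from their own means was used. Fold changes on the log2(TPM + 1) scale understate low genes. Means and SDs are of TPM.

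The members and lists were chosen with earlier results of these data known. Named by rule were the 5 most abundant members, the 3 largest changes each way, paralog pairs, 12 set members, members past 1.25-fold relative to the family (none passed), and in each list up to 2 rising and 2 falling genes of smallest p with the most abundant uncalled one, of which some are left out here; some results that enter the counts are not reported here. Sequences are from RefSeq GRCm38.p6; coordinates of the deposited table were used to match them.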

Additional observations from a re-analysis of the deposited data

How the results depend on the processing

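On TPM 2 members were called higher and 12 lower, at a median of -0.04 log2. Counts and median moved most with the scale: median-of-ratios gave 79, 0 and 0.30, limma-voom with TMM factors on recovered reads 80, 0 and 0.30, and the authors' own comparison, in their deposited table, had 81, 0 and 0.32. In the first 2 of these limma fits no member had a fitted change below 0. TPM scaled to the same total in every library gave 1 higher and 27 lower. Leaving out M1 replicate 3 and M0 replicate 1 together, chosen after seeing the data, gave 24 and 6 at a median of 0.036. Leaving out single libraries gave 2 to 11 higher, 6 to 14 lower and medians of -0.08 to 0.01. The other settings kept the counts within 1.5 times, except the replicate block below.

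Relative to the family, 9 were higher and 8 lower. Plain empirical Bayes, without trend or robust weighting, gave 1 and 2, centring on the 20 most abundant members 4 and 12, limma-voom 7 and 5, the first-designed centre on levels 12 and 5, and leaving out both libraries 14 and 15. Single libraries left out gave 4 to 11 higher and 4 to 9 lower. The cause of these moves was not tested.

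The labels do not say whether the replicate numbers pair the samples. Deviations of same-numbered M1 and M0 libraries correlated at 0.07, -0.08 and 0.04, and those of differently numbered ones at -0.18 to 0.15. With 3 libraries per group, these values cannot settle whether the samples were paired. The replicate block gave 4 higher and 12 lower on TPM, 79 higher after rescaling, and 9 and 7 relative to the family.

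Changes under each setting are given one by one for the 22 members whose TPM change is described in the text (members called, the most abundant, the extremes and Rpl5), out of 43 members named; that selection was made after seeing the data, when refits of every named member gave many sign changes. Of the 43, 28 lay below 0 on TPM; the number that changed sign was 28 with median-of-ratios, 28 with limma-voom, 28 in the authors' deposited table, as all members compared lie above 0 on these scales, 3 with TPM scaled to the same total, 9 without both libraries and 1 to 4 without single libraries. Log2 changes of 17 described members reversed with the scale, which shifts every gene nearly alike. With median-of-ratios they were Rpl11 0.13, Rpl14 0.12, Rpl18 0.24, Rpl22 0.18, Rpl32 0.25, Rpl37a 0.12, Rpl5 0.30, Rpl8 0.29, Rplp1 0.33, Rplp2 0.17, Rps15 0.21, Rps16 0.17, Rps19 0.21, Rps19bp1 0.022, Rps2 0.18, Rps21 0.24, Rps27l 0.029. With limma-voom on recovered reads they were Rpl11 0.13, Rpl14 0.12, Rpl18 0.24, Rpl22 0.18, Rpl32 0.25, Rpl37a 0.11, Rpl5 0.30, Rpl8 0.29, Rplp1 0.33, Rplp2 0.17, Rps15 0.21, Rps16 0.16, Rps19 0.21, Rps19bp1 0.018, Rps2 0.17, Rps21 0.24, Rps27l 0.024. In the authors' deposited table they were Rpl11 0.15, Rpl14 0.14, Rpl18 0.26, Rpl22 0.20, Rpl32 0.27, Rpl37a 0.14, Rpl5 0.32, Rpl8 0.31, Rplp1 0.35, Rplp2 0.18, Rps15 0.23, Rps16 0.19, Rps19 0.19, Rps19bp1 0.038, Rps2 0.19, Rps21 0.26, Rps27l 0.037. Rplp1 ranged from -0.067 to 0.046 when single libraries were left out and was 0.088 without both libraries, where Rps21 was 0.023 and Rpl5 0.0091. None of the changes relative to the family reversed. Rpl3l and Rpl32l, with at most 56 reads in a group, allow no statement.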
